A study of Oryctolagus cuniculus with 4 samples.

Results

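The enzymes that make thymidylate and that activate or break down fluoropyrimidines were examined in rabbit ear hypertrophic scar (HS) tissue with and without drug-loaded microneedles (MNs). The 9 genes were chosen by name: TYMS, TYMP, DPYD, UPP1, UMPS, TK1, RRM1, RRM2 and DUT. Rows for 5 of them (TYMS, DUT, UMPS, RRM1 and DPYD) were found among the 13913 genes of the expression table, and all 5 passed the filter on low values, which kept 9348 genes. TYMP, UPP1, TK1 and RRM2 were not analysed here.

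5-Fluorouracil is a pyrimidine analog that cells convert into nucleotides before it acts. Its deoxynucleotide form blocks thymidylate synthase, the enzyme that makes the thymine nucleotide needed for DNA, while other forms are built into RNA and DNA. In skin these synthesis enzymes are mostly found in dividing cells, such as those of the basal epidermis, and dihydropyrimidine dehydrogenase is the first enzyme of breakdown.

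The scars were formed on the ears of female wild-type rabbits, aged 10 to 12 weeks at purchase, whose strain was not given in the sources used here. The 2 HS libraries came from scars that received no treatment. The 2 drug-loaded MNs libraries, here also called the treated libraries, came from scars treated weekly for 3 weeks with patches of detachable needle tips, which held a peptide prodrug of 5-fluorouracil acetic acid. All tissues were collected on day 43 after wounding, and cells of the ventral epidermis and dermis entered droplet-based single-cell RNA sequencing. Each library was 1 scar tissue, and the labels did not say whether the scars of a group came from different rabbits. The p-values therefore rest only on these samples. In limma, the test used below, the variance of each gene was also drawn toward that of genes of similar level. No library of drug-free MNs was analysed here, so the drug and the needles cannot be told apart.

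The table held 1 value per gene and library, with no values per cell. Values were rescaled to 1000000 per library, and 1 unit is 1 part of that total. The read depth was unknown. A difference in a unit value can come from fewer cells of a type or from less RNA per cell, and these cannot be told apart. The tissue label was checked against markers. KRT10, a keratin of the upper epidermis, stood at 31734 and 45325 units in HS and at 24607 and 35763 after treatment. KRT5, a basal keratin, ranged from 1887 to 4500 units, KRT14, its partner, from 1666 to 3282, and DCN, a fibroblast proteoglycan, from 1530 to 3673. COL1A2, a collagen chain of fibroblasts, ranged from 12946 to 26648 units and PECAM1, an endothelial adhesion molecule, from 19.5 to 41.6. Epidermal and dermal cells were therefore present in every library.

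None of the 5 enzymes passed an adjusted p of 0.05 in limma, and 0 of them had an unadjusted p under 0.05. Across all genes tested, 0.0428% passed the adjusted threshold and 8.65% had an unadjusted p under 0.05. The mean log2 value was higher in drug-loaded MNs for all 5 enzymes, as it was for 64.6% of all genes tested. The median log2 fold change of all genes was 0.12 in favour of drug-loaded MNs. Under median ratio scaling this median was -0.01, so fold changes of this size depend on the scaling.

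TYMS encodes thymidylate synthase, the target of 5-fluorouracil. Its expression was 53.4 and 32.6 units in HS replicates 1 and 2, and 64.5 and 27.8 units in drug-loaded MNs replicates 1 and 2. The highest and the lowest library both belonged to the drug-loaded MNs group, and the groups overlapped. Within drug-loaded MNs, replicate 1 was 2.32 times replicate 2, while the group means, 43.01 ± 14.7 units for HS and 46.1 ± 26.0 for drug-loaded MNs (mean ± SD, n = 2 libraries), differed by a ratio of 1.07. The log2 fold change was 0.02 (SE 0.42, 95% interval -0.96 to 1.002, limma adjusted p 0.994). The interval leaves room for a change of almost 1 log2 unit in either direction. The direction was negative under median ratio scaling (-0.12) and quantile normalization (-0.07), and the value was -0.57 when drug-loaded MNs replicate 1 was left out and 0.61 when replicate 2 of that group was left out.

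DUT encodes the dUTPase, which turns dUTP into dUMP, the substrate of thymidylate synthase, and keeps uracil out of DNA. Its expression was 79.3 and 55.3 units in HS and 98.1 and 55.3 units after treatment. Replicate 1 was the higher library in each group, and the lower libraries of both groups were nearly equal. The log2 fold change was 0.15 (SE 0.33, 95% interval -0.62 to 0.92, limma adjusted p 0.938). It was -0.26 with drug-loaded MNs replicate 1 left out and 0.56 with the other library of that group left out.

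**Figure D1:**
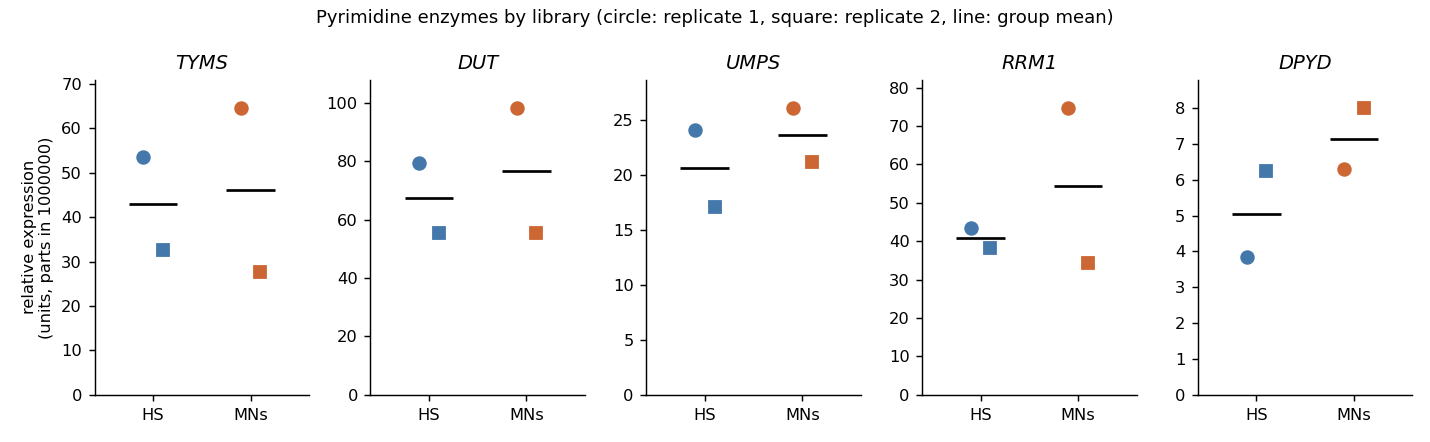
Relative expression (units, parts in 1000000 of the library total, each axis from 0) of the 5 enzymes in HS and drug-loaded MNs (MNs) libraries. Circles are replicate 1, squares are replicate 2 and lines are group means; for TYMS the 2 drug-loaded MNs libraries, at 64.5 and 27.8 units, enclose both HS libraries, and for DPYD the groups touch at 6.23 and 6.31 units.

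RRM1 encodes the large subunit of ribonucleotide reductase, which makes deoxynucleotides from ribonucleotides and also acts on the diphosphate form of the drug. Its expression was 43.5 and 38.4 units in HS and 74.6 and 34.3 units after treatment. Drug-loaded MNs replicate 1 stood apart from the other 3 libraries, which lay between 34.3 and 43.5 units. The log2 fold change was 0.30 (SE 0.36, 95% interval -0.54 to 1.15, limma adjusted p 0.881). With that library left out the value was -0.24, and with the other treated library left out it was 0.85.

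UMPS encodes uridine monophosphate synthase, which carries out the last steps of new pyrimidine synthesis and attaches ribose phosphate to 5-fluorouracil. Its expression was 24.1 and 17.1 units in HS and 26.1 and 21.2 units after treatment. The groups overlapped, and UMPS varied least of the 5 enzymes, with a highest library 1.53 times the lowest. The log2 fold change was 0.20 (SE 0.28, 95% interval -0.45 to 0.85, limma adjusted p 0.898). Without HS replicate 2 it was -0.04 and without HS replicate 1 it was 0.44.

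**Figure D2:**
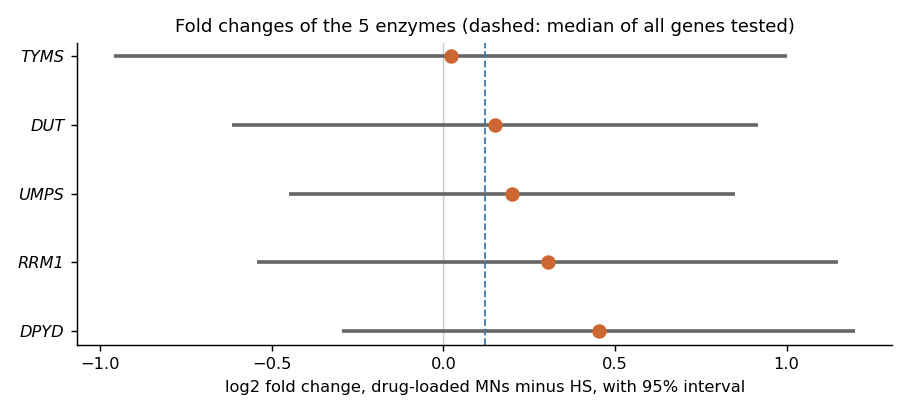
Log2 fold change of each enzyme on the log2(units + 1) scale, drug-loaded MNs minus HS (points), with 95% intervals from limma (lines). The dashed line is the median of all 9348 genes tested, 0.12; every interval includes 0, from TYMS at 0.02 to DPYD at 0.45.

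The variation of the synthesis enzymes was then set beside that of genes used by dividing cells. TYMS, DUT and RRM1 all had the same order of libraries, with drug-loaded MNs replicate 1 highest, then HS replicate 1, HS replicate 2 and drug-loaded MNs replicate 2. This order was found in 4.07% of all genes tested and in 7 of the 12 tested S phase genes. Neighbours in the order can be close, and under median ratio scaling TYMS was 58.8 units in HS replicate 1 and 58.5 in drug-loaded MNs replicate 1. The summed level of the 12 S phase genes, which load and run the replication machinery, was 374 and 277 units in HS and 492 and 249 units after treatment. All 12 were highest in drug-loaded MNs replicate 1, against 40.1% of all genes tested. PCNA, the sliding clamp of DNA polymerase, stood at 172 and 114 units in HS and at 183 and 110 after treatment, with a log2 fold change of 0.02.

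By the likeness of log2 values centred over the 4 libraries, the genes closest to TYMS among 128 candidates of the gene lists were MCM5, MCM2 and E2F1. MCM5 and MCM2 are subunits of the replicative helicase, and E2F1 is a transcription factor of S phase entry. Their root mean square differences from TYMS were 0.0747, 0.0890 and 0.0905 log2 units over 4 libraries. MCM5 was 32.5 and 20.4 units in HS and 45.3 and 18.0 after treatment.

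The 3 synthesis enzymes were also compared with the mean log2 level of the S phase genes. TYMS lay 1.57 and 1.22 log2 units above that mean in HS and 1.29 and 1.16 above it in drug-loaded MNs, a difference of -0.17 between the group means against a pooled SD of 0.187. The difference was -0.04 for DUT (pooled SD 0.144) and 0.11 for RRM1 (pooled SD 0.0881). The first 2 differences were smaller than the spread between replicates and that of RRM1 slightly larger. Since 2 libraries against 2 allow too few arrangements for a permutation test under 0.05, no test was made.

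Mitosis genes shared the upper part of this order. All 19 tested genes were highest in drug-loaded MNs replicate 1 and next highest in HS replicate 1, an order of the upper libraries found in 9 of the 12 S phase genes and in 9.03% of all genes. The whole order of TYMS was found in 1 mitosis gene, TTK, a kinase of the spindle checkpoint, named after its values were seen, and in the rest the lowest library was HS replicate 2. Their summed level was 332 and 135 units in HS and 684 and 196 units after treatment, and the groups overlapped. The mean was higher in drug-loaded MNs for all 19, and the median difference was 0.80 log2 units against 0.12 for all genes, yet 0 passed in limma and 0 had an unadjusted p under 0.05. The median was 0.04 with drug-loaded MNs replicate 1 left out and 1.57 with the other treated library left out. TOP2A, the topoisomerase of dividing cells, was 26.6 and 13.7 units in HS and 63.2 and 20.4 after treatment, a log2 difference of 0.88 with an adjusted p of 0.739 in limma. TOP2A passed the threshold in limma without drug-loaded MNs replicate 2, at 1.68 (adjusted p 0.0443), and stood at 0.09 without drug-loaded MNs replicate 1 (adjusted p 1). Against the mean of the mitosis genes, TYMS was 0.73 log2 units lower in drug-loaded MNs than in HS (pooled SD 0.347), with values of 1.79 and 2.27 in HS and 1.06 and 1.55 after treatment. DUT was 0.60 lower (pooled SD 0.547) and RRM1 0.44 lower (pooled SD 0.581), the latter within the spread between replicates. The part of cycling cells in the values of TYMS, DUT and RRM1 was not tested.

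**Figure D3:**
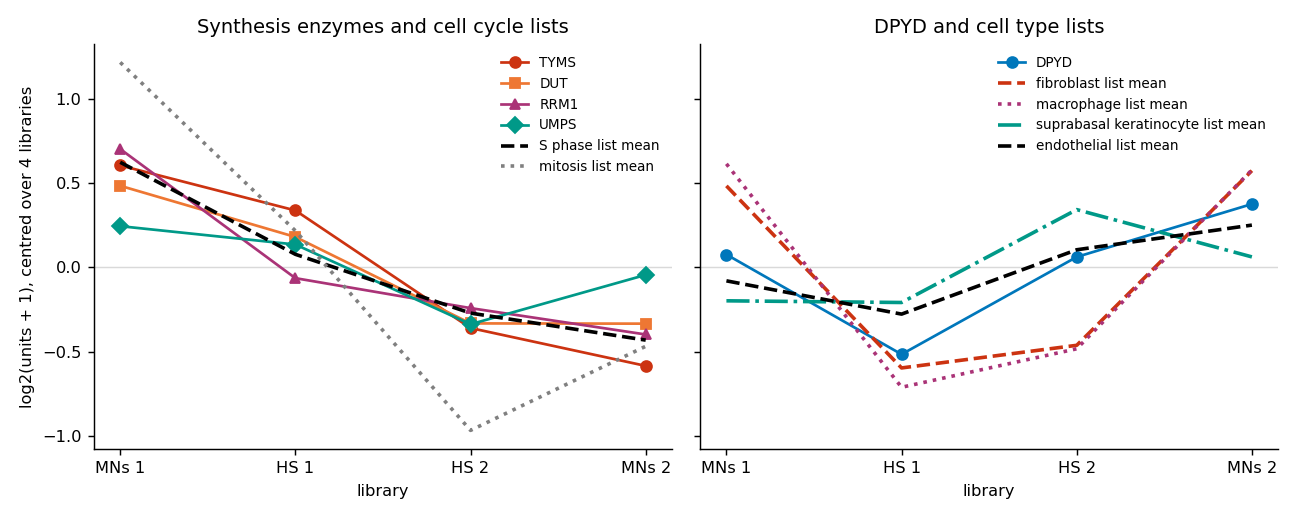
Log2(units + 1) in each library, centred over the 4 libraries, with lines that only join the points of 1 gene or list. TYMS, DUT and RRM1 (left) lie near the S phase list mean, highest in drug-loaded MNs replicate 1 (MNs 1). UMPS (left) varied less, from 17.1 units in HS replicate 2 (HS 2) to 26.1 in MNs 1. DPYD (right) was lowest in HS replicate 1 (HS 1), at 3.85 units, and highest in drug-loaded MNs replicate 2 (MNs 2), at 7.99 units.

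DPYD encodes dihydropyrimidine dehydrogenase, the first and rate-limiting enzyme of pyrimidine breakdown, which inactivates 5-fluorouracil. Its expression was 3.85 and 6.23 units in HS and 6.31 and 7.99 units after treatment. The groups did not overlap, with drug-loaded MNs higher, as in 26.6% of all genes tested, but the gap was that between 6.23 and 6.31 units. Under median ratio scaling, quantile normalization and a total without abundant genes, the groups overlapped. Under the first of these, drug-loaded MNs replicate 1 was at 5.72 units against 6.19 in HS replicate 2. The total without abundant genes left out the 50 highest genes and also mitochondrial and ribosomal protein genes. The log2 fold change was 0.45 (SE 0.32, 95% interval -0.30 to 1.20, limma adjusted p 0.781). It was positive in all 14 alternatives, but as the groups did not overlap in the main setting, only a rescaling could reverse it. It was 0.33 under median ratio scaling, 0.21 under quantile normalization and 0.45 under the total without abundant genes. It was 0.16 when HS replicate 1 was left out and 0.74 when HS replicate 2 was left out.

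The library order of DPYD differed from that of the synthesis enzymes, since HS replicate 1, the second highest for TYMS, DUT, RRM1 and UMPS, was the lowest for DPYD. The closest genes by centred log2 values were PECAM1 and KDR, an endothelial growth factor receptor, with root mean square differences of 0.0790 and 0.0902, and then CD74, a chaperone of antigen presenting cells, at 0.185. PECAM1 was 19.5 and 29.0 units in HS and 29.4 and 41.6 after treatment. KDR was 11.2 and 18.6 units in HS and 18.2 and 19.6 after treatment. The endothelial list as a whole differed by a median of 0.08 log2 units, with 4 of 7 genes higher and 3 lower, and summed levels of 206 and 213 units in HS and 161 and 216 after treatment.

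Fibroblast and macrophage markers differed more between the groups than DPYD did. Of the other dermal lists, 1 of 4 mast, 1 of 4 mural and 0 of 5 Schwann cell genes tested were higher without overlap. All 3 tested genes of the T cell list, CD2, CD4 and PTPRC, were higher without overlap too. Only these 3 of the 8 listed had rows, and whether they mark T cells alone was not tested. Of all genes tested, 26.6% were higher in drug-loaded MNs without overlap. All 8 tested fibroblast genes were, by a median of 1.12 log2 units. Their summed levels were 23096 and 22619 units in HS and 44857 and 48808 after treatment. All 10 tested macrophage genes were higher without overlap, by a median of 1.14 log2 units, with summed levels of 264 and 318 units in HS and 569 and 580 after treatment. C1QB, counted here and below, had an HS mean of 0.863 units, under the filter limit of 1 unit. It passed the filter only through drug-loaded MNs, where its mean was 4.82 units. CD74 was 131 and 176 units in HS and 252 and 269 after treatment. Of the listed markers, 8 of 10 fibroblast, 10 of 12 macrophage and 7 of 10 endothelial ones had rows, and none of these was at 0 in all libraries. In limma 0 of them passed the adjusted threshold. At an unadjusted p under 0.05 were 8 fibroblast, 10 macrophage and 1 endothelial gene, against 8.65% of all genes tested. Relative to the fibroblast mean, DPYD was 0.61 log2 units lower in drug-loaded MNs (pooled SD 0.244), and relative to the macrophage mean it was 0.74 lower (pooled SD 0.242). Relative to the suprabasal keratinocyte mean it was 0.58 higher (pooled SD 0.0262), and relative to the basal one 0.56 higher (pooled SD 0.560). The share of the total from mitochondrial genes also differed between the groups without overlap, at 2.75% and 2.80% in HS and 4.37% and 4.58% after treatment. The part of these cell types, and of the mitochondrial share, in the values of DPYD and of the lists was not tested.

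The rest of the pathway was examined through 6 lists, of which 0 genes passed the adjusted threshold in limma. The counts at an unadjusted p under 0.05 below stand beside 8.65% of all genes tested. Folate enzymes recycle the cofactor of thymidylate synthase. Of 18 listed, 7 had rows and 6 were tested, 4 higher and 2 lower, with 0 at an unadjusted p under 0.05 and a median log2 fold change of 0.15. ALDH1L2, which oxidises formyl-tetrahydrofolate in mitochondria, was 12.7 and 13.5 units in HS and 21.0 and 17.0 after treatment, without overlap, a log2 difference of 0.50 with an adjusted p of 0.696 in limma. ALDH1L1, its cytosolic counterpart, was near the limit of the filter at 0.531 and 1.15 units in HS and 3.74 and 1.14 after treatment. Its HS mean was 0.842 units, under the filter limit of 1 unit. Without drug-loaded MNs replicate 1 it did not pass the filter. MTHFD2L, a mitochondrial enzyme of folate conversion, had a log2 fold change of 0.28, which was close to 0 without drug-loaded MNs replicate 1. MTHFD2 was not analysed here.

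For the 4 genes of new pyrimidine synthesis the median difference was 0.002 log2 units, with 2 higher, 2 lower and 0 at an unadjusted p under 0.05. CAD, which carries out the opening steps, was 4.67 and 4.80 units in HS and 6.68 and 5.46 after treatment. DHODH, the mitochondrial dihydroorotate dehydrogenase that precedes UMPS, was 20.9 and 19.8 units in HS and 19.0 and 20.7 after treatment. CTPS1, one of the CTP synthases, was 20.3 and 18.6 units in HS and 18.4 and 12.9 after treatment, without overlap. CTPS2, the other, differed by 0.04 on the log2 scale.

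Among 9 tested pyrimidine kinases, deaminases and related enzymes, 6 were higher and 3 lower, with a median difference of 0.10 log2 units, which was negative under median ratio scaling (-0.042) and quantile normalization (-0.058), and 1 at an unadjusted p under 0.05. UCK2, a uridine-cytidine kinase that can phosphorylate fluorouridine, was 48.2 and 46.3 units in HS and 35.1 and 18.2 after treatment. The HS libraries were close together, and both drug-loaded MNs libraries were lower, as in 11.2% of all genes. The log2 fold change was -0.87 (SE 0.33), the unadjusted p in limma was 0.0299 and the limma adjusted p was 0.489. It was negative in all 14 alternatives, with -1.33 when drug-loaded MNs replicate 1 was left out and -0.42 when replicate 2 was left out. RRM2B, the p53-inducible small subunit of ribonucleotide reductase, was 5.04 and 4.84 units in HS and 5.76 and 5.90 after treatment, with a log2 fold change of 0.20 that was -0.05 under quantile normalization. DCK, the deoxycytidine kinase, was 10.2 and 13.1 units in HS and 15.3 and 7.62 after treatment, which enclosed both HS libraries. TK2, the mitochondrial thymidine kinase, ranged from 0.862 to 2.97 units. CDA, the cytidine deaminase, did not pass the filter, at 0.479 and 0.430 units in HS and 1.39 and 1.003 after treatment. NME1 and NME2, which are near-identical nucleoside diphosphate kinases whose reads may not be separated, differed by -0.06 and 0.11.

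For pyrimidine breakdown and nucleotidase genes the median difference was 0.32 log2 units, with 4 of 6 tested genes higher and 2 at an unadjusted p under 0.05. The 6 were NT5C3A, NT5C3B, NT5E, SAMHD1, ENPP1 and ENPP3, so the median holds no enzyme that follows DPYD in breakdown. DPYS, which follows DPYD in breakdown, was listed at 0 in all 4 libraries. NT5E, the cell surface nucleotidase CD73, was 54.7 and 68.7 units in HS and 117 and 83.0 after treatment. Its log2 fold change was 0.68 (SE 0.26, unadjusted p 0.0336 and adjusted p 0.513 in limma). SAMHD1, which degrades deoxynucleotide triphosphates, was 17.8 and 17.1 units in HS and 27.0 and 27.9 after treatment. Replicates of SAMHD1 were close together in both groups, and its log2 fold change of 0.63 (SE 0.24, unadjusted p 0.0327 and adjusted p 0.508 in limma) stayed between 0.48 and 0.65 in all 14 alternatives. ENPP1, an ectonucleotide pyrophosphatase, was 15.3 and 13.5 units in HS and 30.0 and 16.6 after treatment.

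Of 9 tested genes that remove uracil and fluorouracil from DNA or repair the gap, 6 were higher and 3 lower, with a median difference of 0.21 log2 units and 1 at an unadjusted p under 0.05. APEX1, the endonuclease that cuts at the emptied site, was 107 and 79.1 units in HS and 68.6 and 50.7 after treatment. Its log2 fold change was -0.63 (SE 0.26, unadjusted p 0.0454 and adjusted p 0.561 in limma), and it was negative in all 14 alternatives. MBD4, a glycosylase, was 18.1 and 22.7 units in HS and 29.5 and 23.6 after treatment, with a log2 fold change of 0.36. LIG3, a DNA ligase, ranged from 14.0 units in HS replicate 1 to 38.9 in drug-loaded MNs replicate 2. UNG, the main uracil glycosylase, was not analysed here.

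Of the transporters, 6 were tested, 4 higher and 2 lower, with a median difference of 0.04 log2 units and 1 at an unadjusted p under 0.05. SLC22A7, an organic anion transporter, was 83.4 and 47.4 units in HS and 32.5 and 35.0 after treatment. Its log2 fold change was -0.88 (SE 0.30, unadjusted p 0.0213 and adjusted p 0.441 in limma), and it was -1.28 without HS replicate 2 and -0.48 without HS replicate 1. ABCC5, an efflux pump of nucleotide analogs, was 8.36 and 7.27 units in HS and 14.0 and 10.1 after treatment, a log2 difference of 0.55 with an adjusted p of 0.700 in limma, and of 0.33 without drug-loaded MNs replicate 1. SLC29A1, the main equilibrative nucleoside transporter, was 64.6 and 52.6 units in HS and 69.9 and 52.6 after treatment, and SLC29A3, a lysosomal one, had a log2 fold change of 0.27.

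**Figure D4:**
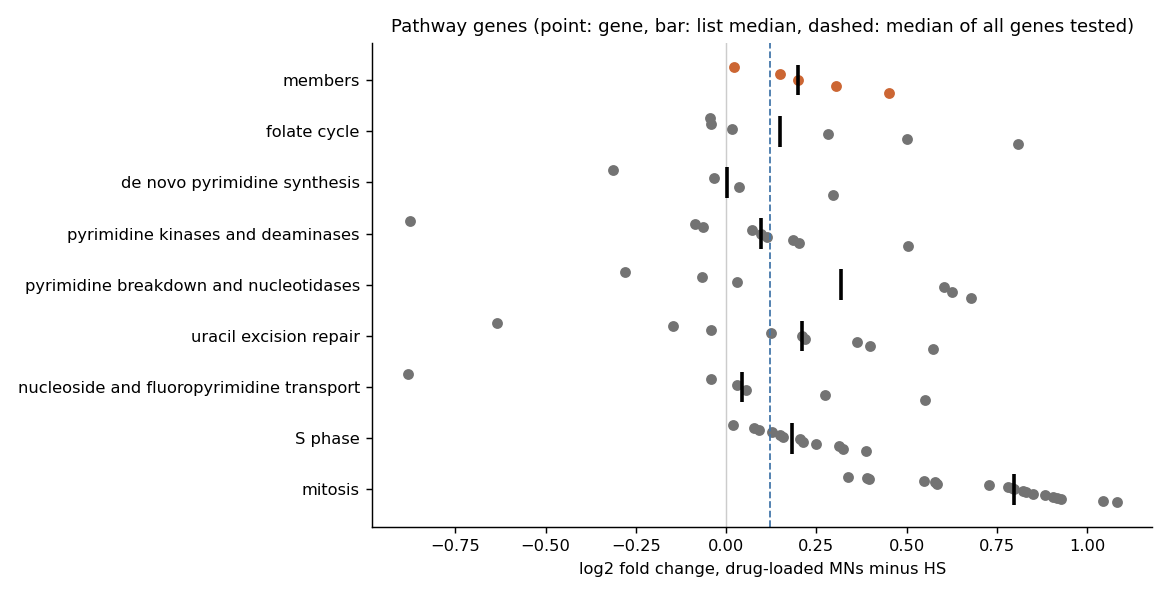
Log2 fold change, drug-loaded MNs minus HS, of each tested gene (points), with the list median (bars), zero (grey line) and the median of all genes tested, 0.12 (dashed line). The medians of the pathway lists lie between 0.002 and 0.32, while the 19 mitosis genes lie to the right with a median of 0.80, which was 0.04 with drug-loaded MNs replicate 1 left out.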

How the data were processed

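Single-cell RNA-seq libraries were made with the 10x Genomics method (single cell 3' v2 chemistry). The authors aligned reads and counted molecules with Cell Ranger (2.1.1 in the submitters' processing notes), handled the counts in Seurat and filtered cells before deposit. The notes name the mouse build mm10, whereas the gene identifiers are rabbit Ensembl ones, and the study mentions batch correction, without saying if these values had it. The deposited values are a relative expression score per gene and library, not FPKM as the table's name says, since each of the 4 columns summed to 10000. How cells were combined and how doublets were treated was not given in the sources used here. Low values were no multiples of a smallest step (18.5% to 21.7% whole, tolerance 0.1 steps), and read counts were not recoverable.

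Values were rescaled to 1000000 per library, genes whose mean reached 1 unit were kept, and log2(value + 1) was modelled in limma 3.58.1 (R 4.3.3) by lmFit and trended eBayes. P-values were two-sided and adjusted by the Benjamini-Hochberg method over 9348 genes. This scale understates the change of low genes. This test, planned for FPKM, was kept for the score. The fit was tested on simulated data. List medians are descriptions. The members, the gene lists and the naming rule (all members, genes named by role, the 3 genes of smallest p in each pathway list and the 3 list genes most like TYMS and DPYD) were chosen with earlier results of these data known. In the RefSeq gene list of assembly mOryCun1.1, no gene overlapped TYMS, DUT, UMPS or RRM1, and 3 loci overlapped DPYD. Alternatives covered scaling, pseudocount, filter, eBayes prior, a replicate block and leaving out each library.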

Additional observations from a re-analysis of the deposited data

How the results depend on the processing

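No alternative took any of the 5 enzymes past the threshold, with limma adjusted p values between 0.360 and 1, and DPYD alone kept its direction in all 14. Of the other 29 named genes, 18 kept theirs in every alternative that gave a value. Changes of the filter, the eBayes prior or the block cannot move a log2 fold change. Where the groups do not overlap, neither leaving out a library nor another pseudocount can reverse its direction. The depth was unknown, and so was its limit on these values. The count test was not run, and the promoter search was not made.

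Past the threshold were 4 genes. There were 0 under median ratio scaling, quantile normalization, the total without abundant genes, a pseudocount of 5 and no filter, and there was 1 with eBayes without trend. With 1 library left out there were from 0 (without HS replicate 1) to 75 (without drug-loaded MNs replicate 2), the single library left being taken to vary as those of the complete group do. With the replicate block there were 241. The block was balanced over the groups, so it could not change any log2 fold change. The correlation of the deviations of same-numbered libraries across genes was 0.22, and with 2 pairs a pairing was neither established nor excluded. The cause was not tested for any of these values or those below.

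Under median ratio scaling the log2 fold change was -0.12 for TYMS, -0.10 for CTPS2, -0.086 for SLC29A1, -0.12 for PCNA, -0.063 for MCM2 and -0.044 for E2F1. Under quantile normalization it was -0.070 for TYMS, -0.094 for CTPS2, -0.047 for RRM2B, -0.011 for SLC29A1, -0.013 for PCNA, -0.069 for MCM2 and -0.13 for E2F1. List medians moved to -0.14 (new pyrimidine synthesis), 0.18 (breakdown and nucleotidases), -0.089 (transport), -0.042 (kinases and deaminases), 0.069 (uracil excision), 0.023 (folate) and 0.042 (S phase) under median ratio scaling, and to -0.072 (folate), -0.14 (new pyrimidine synthesis), -0.058 (kinases and deaminases), -0.064 (transport), 0.11 (uracil excision) and 0.027 (S phase) under quantile normalization. The difference of DPYD from the suprabasal keratinocyte mean was 0.65 with a pseudocount of 0.1 and 0.41 with a pseudocount of 5.

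With 1 library left out, log2 fold changes ranged from -0.57 to 0.61 for TYMS, from -0.26 to 0.56 for DUT, from -0.036 to 0.44 for UMPS and from -0.24 to 0.85 for RRM1. Among the genes beside them the ranges were -0.0035 to 0.57 for MTHFD2L, -0.0035 to 0.078 for CTPS2, -0.050 to 1.20 for LIG3, -0.091 to 0.025 for DHODH, -0.54 to 0.37 for DCK, -0.14 to 0.26 for SLC29A1, -0.34 to 0.38 for PCNA, -0.49 to 0.79 for MCM5, -0.61 to 0.77 for MCM2 and -0.43 to 0.61 for E2F1. Without a change of direction they were 0.09 to 1.68 for TOP2A, 0.56 to 1.39 for ALDH1L1, -0.55 to -0.070 for CTPS1, 0.17 to 0.42 for CAD, 0.072 to 0.94 for TK2, 0.43 to 0.92 for NT5E, 0.20 to 1.01 for ENPP1, -0.85 to -0.42 for APEX1, 0.21 to 0.52 for MBD4, 0.33 to 0.77 for ABCC5, 0.18 to 0.37 for SLC29A3, 0.26 to 0.81 for PECAM1 and 0.026 to 0.71 for KDR. TOP2A alone of the named genes changed its call. ALDH1L1 did not pass the filter without drug-loaded MNs replicate 1, so its range holds no value for that omission. For list medians the ranges were -0.010 to 0.42 (folate), 0.079 to 0.40 (breakdown and nucleotidases), -0.075 to 0.37 (uracil excision), -0.0050 to 0.23 (transport), 0.036 to 0.19 (kinases and deaminases), -0.036 to 0.050 (new pyrimidine synthesis), -0.36 to 0.73 (S phase) and 0.035 to 1.57 (mitosis). In all of these but UMPS, CTPS2, LIG3, ALDH1L1, TK2, APEX1, SLC29A3, PECAM1, KDR and the medians of folate, of breakdown and nucleotidases, of new pyrimidine synthesis and of kinases, the ends came from leaving out 1 of the drug-loaded MNs libraries.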
